A study of Mus musculus with 8 samples.

Results

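The genes described here are those of 8 neutrophil granule proteins (Camp, Ngp, Ltf, Mmp8, Mpo, Elane, Prtn3 and Ctsg) and of the receptor for granulocyte colony-stimulating factor (G-CSF), Csf3r. Every probe set whose annotation named 1 of these 9 genes was taken, which gave 12 of the 12422 probe sets tested, and these 9 genes were among 8251 genes with a probe set of their own. RNA of whole SJL/J spinal cord was measured on Affymetrix MG U74Av2 arrays, on which sets of short oligonucleotides report the abundance of each transcript. There were 5 arrays of mice with experimental autoimmune encephalomyelitis (EAE), a model of inflammatory demyelination, and 3 of healthy control mice, and each array held the RNA of 2 animals pooled, 10 EAE and 6 control mice in all. All mice were female and 8 to 12 weeks old by the labels. EAE was induced with a peptide of proteolipid protein (PLP) under the skin of the flank, and controls were injected with vehicle. By the methods the peptide was given in Complete Freund's adjuvant with Mycobacterium tuberculosis, followed by pertussis toxin, and whether the vehicle held the adjuvant or controls had the toxin is not given in the sources used here. EAE mice had an average grade of 2.5 and were killed on day 14 (EAE arrays 1 and 4), days 12 to 14 (array 2), day 17 (array 3) and day 15.5 (array 5) and controls died on the same days. The labels state that EAE mice were also given murine serum albumin into a vein shortly before death. They mention none for controls, so the albumin and EAE cannot be told apart. All mice were perfused with saline before the cord was taken. The arrays fell into 5 batches by processing day, and batches 1, 2 and 3 each held 1 EAE and 1 control array, while EAE arrays 4 and 5 had a batch each to themselves.

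Neutrophils store antimicrobial proteins and proteases in granules that are filled in sequence while the cell matures in bone marrow. Promyelocytes, the early stage, make the contents of azurophil granules, such as myeloperoxidase and the serine proteases, and the messengers of these proteins decline before the cell leaves the marrow. Specific granule contents such as lactotransferrin and cathelicidin are made at later stages under the control of C/EBP transcription factors, and G-CSF, acting through Csf3r, drives the formation and release of the cells. In EAE neutrophils enter the inflamed cord early, together with monocytes and T cells.

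The promoters of the specific granule genes, which rose, and of Csf3r, which rose by some of its probe sets only, are shown. That of Elane stands beside them as an azurophil gene that did not pass the test. Each is the 250 bases before the start of transcription in RefSeq (assembly GRCm38.p6), written 5′ to 3′ on the strand of the gene. Capitals mark matches, on either strand, to the core of the C/EBP motif (TTNNGNAA) or to the core of the motif of PU.1, a factor of myeloid cells (AGGAAG).
Ngp promoter, chr9:110419558-110419807, forward strand: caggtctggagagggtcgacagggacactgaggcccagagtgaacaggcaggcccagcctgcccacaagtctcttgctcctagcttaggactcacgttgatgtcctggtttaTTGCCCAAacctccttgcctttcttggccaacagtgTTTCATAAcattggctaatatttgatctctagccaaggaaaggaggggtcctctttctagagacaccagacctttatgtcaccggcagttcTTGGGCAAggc
Ltf promoter, chr9:111019042-111019291, forward strand: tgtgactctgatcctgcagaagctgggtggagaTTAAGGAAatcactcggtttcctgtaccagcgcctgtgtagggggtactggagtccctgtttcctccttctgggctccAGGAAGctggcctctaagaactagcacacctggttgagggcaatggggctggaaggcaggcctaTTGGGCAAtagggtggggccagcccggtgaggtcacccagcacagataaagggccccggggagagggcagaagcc
Mmp8 promoter, chr9:7558179-7558428, forward strand: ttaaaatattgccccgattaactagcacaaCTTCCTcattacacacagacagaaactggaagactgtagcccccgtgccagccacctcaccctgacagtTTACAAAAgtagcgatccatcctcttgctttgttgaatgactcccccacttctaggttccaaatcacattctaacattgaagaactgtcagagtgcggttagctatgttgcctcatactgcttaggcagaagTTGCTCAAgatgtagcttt
Camp promoter, chr9:109849457-109849706, reverse strand: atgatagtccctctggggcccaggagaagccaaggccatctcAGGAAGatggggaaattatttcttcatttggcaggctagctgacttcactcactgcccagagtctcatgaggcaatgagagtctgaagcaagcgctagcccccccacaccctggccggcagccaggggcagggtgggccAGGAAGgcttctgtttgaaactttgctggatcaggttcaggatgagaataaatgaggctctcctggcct
Csf3r promoter, chr4:126024409-126024658, forward strand: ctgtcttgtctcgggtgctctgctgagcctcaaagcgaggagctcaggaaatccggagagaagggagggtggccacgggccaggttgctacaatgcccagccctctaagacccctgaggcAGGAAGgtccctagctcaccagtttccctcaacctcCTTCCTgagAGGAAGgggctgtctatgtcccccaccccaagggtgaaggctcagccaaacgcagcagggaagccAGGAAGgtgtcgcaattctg
Elane promoter, chr10:79886062-79886311, forward strand: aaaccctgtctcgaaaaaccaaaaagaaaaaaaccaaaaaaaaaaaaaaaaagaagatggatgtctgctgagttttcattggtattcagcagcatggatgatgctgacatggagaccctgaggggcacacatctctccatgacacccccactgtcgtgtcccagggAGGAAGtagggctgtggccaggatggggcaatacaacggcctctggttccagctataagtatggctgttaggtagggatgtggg

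The C/EBP core matched 3 times in the window of Ngp and 2 times in those of Ltf and Mmp8. It matched in none of the other 6 member windows, so 3 of 9 held it, against 36.8% of 32851 promoter windows of the same length, and 10.9% of these held 2 or more matches. The PU.1 core was found in 8 of 9 member windows, Ngp being the exception, against 29.5% of all windows. It matched 4 times in Csf3r, 3 times in Mpo and in Ctsg, 2 times in Camp and in Prtn3, and 1 time in Elane, Ltf and Mmp8. The core of the RUNX motif (TGTGGT) matched only in Ctsg among the members, against 14% of all windows. No match of any of these 3 motifs overlapped another in the windows printed. A match describes the letters only, and binding was not measured. In the RefSeq order of protein-coding genes Elane lay directly after Prtn3 on chromosome 10, Ctsg between the granule proteases Mcpt8 and Gzme on chromosome 14, and Mmp8 between the metalloproteinases Mmp10 and Mmp27 on chromosome 9, the chromosome that also holds Camp, Ngp and Ltf.

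The 4 specific granule genes Mmp8, Ngp, Camp and Ltf were all higher in EAE spinal cord, by 5.24-fold, 3.32-fold, 1.51-fold and 1.36-fold, whereas none of the 5 probe sets of the 4 azurophil granule genes passed the test. Of 3 probe sets of Csf3r, 1 was 1.96-fold and 1 was 1.50-fold higher, and the brightest did not pass. In all, 6 of 12 member probe sets were higher at an adjusted p under 0.05 from limma, against 8.26% of all probe sets, and 0 were lower, against 11.4%, with 0 also at an unadjusted p under 0.05. In 7 of 12 every EAE array lay above every control array, against 10.9% of all probe sets, and in 0 of 12 every EAE array lay below, against 15.1%. Differences are on the log2 scale, EAE minus control, from a linear model with treatment and batch. With batch in the model the difference rests on the 3 pairs of batches 1 to 3, and EAE arrays 4 and 5 do not enter it, so the values without the batch term, in which all 8 arrays enter, are given beside it. In whole tissue a change in the number of cells and a change in RNA per cell cannot be told apart.

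**Figure D1:**
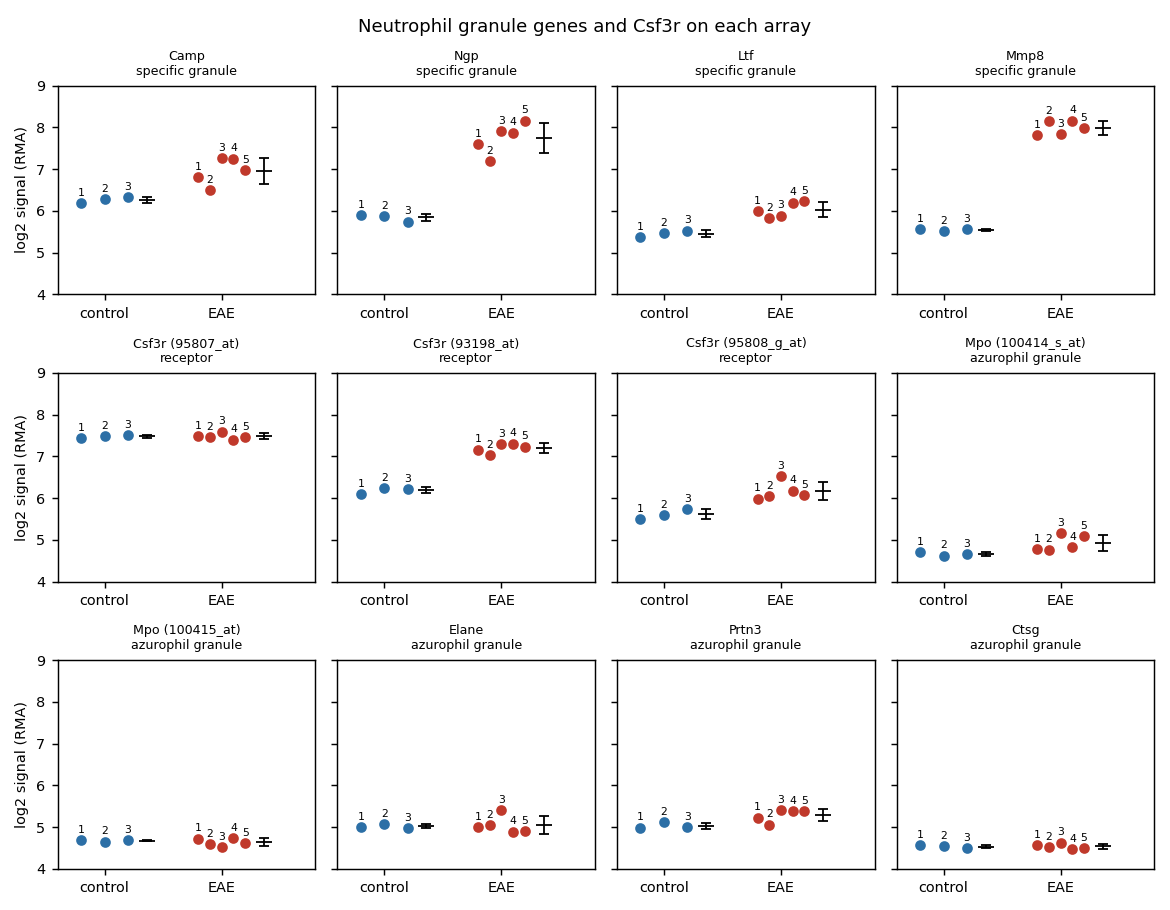
Log2 signal of the 12 member probe sets on each of 5 EAE (red) and 3 control (blue) arrays, numbered by replicate, and bars for each group's mean and SD beside the points. The EAE arrays of Mmp8 lie between 7.81 and 8.16 against 5.52 to 5.56 in control, while the points of Ctsg lie between 4.47 and 4.63 in both groups.

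Mmp8, the neutrophil collagenase, was at a log2 signal of 7.81, 8.16, 7.84, 8.16 and 7.99 on EAE arrays 1 to 5 and at 5.56, 5.52 and 5.56 on control arrays 1 to 3. The groups were more than 2 log2 units apart, and each of the 5 EAE arrays stood far above the controls. The log2 difference of 2.39 (standard error 0.0994, adjusted p = 0.000403 by limma) was a 5.24-fold rise with a 95% confidence interval of 4.39 to 6.25. Within batches 1, 2 and 3 it was 2.25, 2.63 and 2.28. By size of rise it ranked 115 among the 12422 probe sets. Without the batch term the rise was 5.45-fold (adjusted p = 6.74e-07).

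Ngp, neutrophilic granule protein, is a relative of the cathelicidins. Its log2 signal was 7.60, 7.20, 7.91, 7.88 and 8.16 on the EAE arrays and 5.90, 5.88 and 5.74 on the control arrays. All EAE arrays were higher than all controls, and EAE array 2 was the lowest of the EAE arrays. The log2 difference was 1.73 (standard error 0.168, adjusted p = 0.00415 from limma), or 3.32-fold with an interval of 2.46 to 4.47, and it was 1.70, 1.32 and 2.17 within the batches. Without the batch term it was 3.76-fold (adjusted p = 0.000195).

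Camp encodes cathelicidin, the precursor of an antimicrobial peptide. Its log2 signal was 6.81, 6.50, 7.26, 7.25 and 6.97 on the EAE arrays and 6.18, 6.28 and 6.33 on the control arrays. The groups did not overlap, but EAE array 2 came close to the highest control. The log2 difference was 0.59 (standard error 0.143, adjusted p = 0.0457 from limma), or 1.51-fold with an interval of 1.17 to 1.94. The batches ranged widely, at 0.63, 0.22 and 0.93. Without EAE array 1 or control array 1 Camp did not pass (adjusted p = 0.106), nor without EAE array 3 or control array 3 (adjusted p = 0.176), since leaving out either array of a batch takes its pair out of the difference. Without the batch term the rise was 1.62-fold (adjusted p = 0.0213).

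Ltf encodes lactotransferrin, which withholds iron from microbes. Its log2 signal was 5.98, 5.83, 5.88, 6.20 and 6.23 on the EAE arrays and 5.37, 5.47 and 5.53 on the control arrays. All EAE arrays lay above the controls by a small margin. The log2 difference was 0.44 (standard error 0.0831, adjusted p = 0.0239 from limma), or 1.36-fold with an interval of 1.17 to 1.58, and 0.62, 0.36 and 0.36 within the batches. Without an array of batch 1, 2 or 3 Ltf did not pass (adjusted p = 0.0576, 0.0730 and 0.0978). Without the batch term it rose 1.48-fold (adjusted p = 0.00641).

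Csf3r was measured by 3 probe sets, which disagreed. The probe set 93198_at was at a log2 signal of 7.16, 7.03, 7.29, 7.31 and 7.24 on the EAE arrays and 6.10, 6.24 and 6.21 on the control arrays. The EAE arrays lay close together and well above the controls, with a log2 difference of 0.97 (standard error 0.0869, adjusted p = 0.00331 from limma), 1.96-fold with an interval of 1.68 to 2.29. The batches gave 1.06, 0.78 and 1.08. Leaving out the batch term gave 2.03-fold (adjusted p = 3.59e-05 from limma).

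The probe set 95808_g_at was at 5.99, 6.06, 6.53, 6.18 and 6.08 on the EAE arrays and 5.50, 5.59 and 5.74 on the control arrays. These groups did not overlap either, and EAE array 3 was the highest. The log2 difference was 0.58 (standard error 0.0913, adjusted p = 0.0148 from limma), 1.50-fold with an interval of 1.27 to 1.76, and without EAE array 3 or control array 3 it did not pass (adjusted p = 0.0675). Leaving out the batch term gave 1.47-fold (adjusted p = 0.0155 from limma). The probe set 95807_at, annotated to the same source sequence as 95808_g_at, was at 7.48, 7.47, 7.59, 7.40 and 7.46 on the EAE arrays and 7.45, 7.49 and 7.51 on the control arrays. Its groups overlapped throughout, with a log2 difference of 0.03 (adjusted p = 0.814 from limma) and an interval of -0.14 to 0.20, which does not reach the intervals of the other two. With no batch term its log2 difference was -0.004. In a count by the brightest probe set of each gene Csf3r therefore stands as not called, and 4 of the 9 genes were higher, against 9.19% of all genes, and 0 lower, against 13.5%. The median log2 difference by the brightest probe set was 0.25 over the 9 genes and -0.05 over all genes. Why the probe sets differ was not tested.

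**Figure D2:**
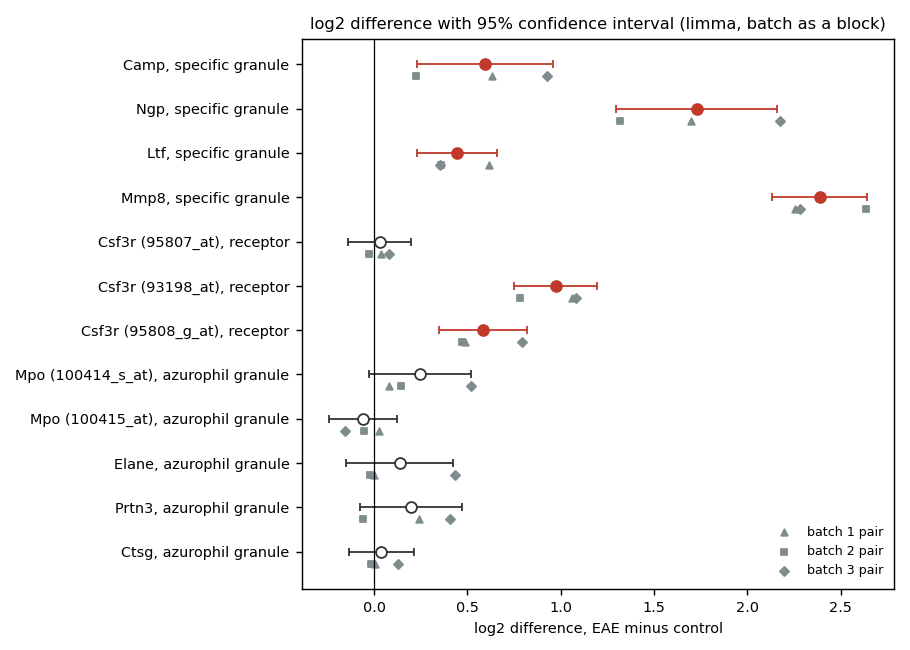
Log2 difference between EAE and control for each member probe set (circles, with the 95% confidence interval from limma), filled where the adjusted p was under 0.05, with the difference within each of the 3 batches as grey symbols below. The intervals of the 4 specific granule genes and of 2 Csf3r probe sets lie above 0, and those of the 5 azurophil probe sets and of 95807_at cross it.

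The azurophil granule genes were dim on every array. No probe set of theirs passed in the model with batch or under any alternative that tested them (adjusted p of 0.0729 or more from limma or the linear model without moderation). The setting with brighter probe sets only left them out. At an unadjusted p under 0.05 limma gave 0 of the 5 with batch in the model and 2 of 5, Mpo by 100414_s_at and Prtn3, without it. Mpo, the peroxidase that makes hypochlorous acid, was at a log2 signal of 4.78, 4.77, 5.17, 4.82 and 5.08 on the EAE arrays and 4.70, 4.62 and 4.65 on the control arrays by the probe set 100414_s_at. The EAE arrays were above the controls by a narrow margin, with a log2 difference of 0.25 (adjusted p = 0.185 from limma) and an interval of -0.02 to 0.52. Leaving out the batch term gave 0.27 (adjusted p = 0.117 from limma). The other Mpo probe set, 100415_at, was at 4.72, 4.60, 4.53, 4.73 and 4.62 against 4.69, 4.65 and 4.68, with overlapping groups and a difference of -0.06 (interval -0.24 to 0.12). With no batch term this difference was -0.04.

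Elane, neutrophil elastase, was at a log2 signal of 5.00, 5.05, 5.41, 4.89 and 4.90 on the EAE arrays and 5.00, 5.07 and 4.98 on the control arrays. EAE array 3 alone lay above the controls. The log2 difference was 0.14 (adjusted p = 0.485 from limma) with an interval of -0.15 to 0.42, and within the batches it was -0.002, -0.02 and 0.43. With no batch term it was 0.03. Prtn3, proteinase 3, was at 5.22, 5.06, 5.40, 5.38 and 5.39 against 4.99, 5.12 and 4.99. Only EAE array 2 fell within the control range, and the log2 difference was 0.20 (adjusted p = 0.285 from limma) with an interval of -0.08 to 0.47. Without the batch term the difference for Prtn3 was 0.26 (adjusted p = 0.0815). Ctsg, cathepsin G, was at 4.56, 4.53, 4.63, 4.47 and 4.50 against 4.56, 4.54 and 4.49, a log2 difference of 0.04 (adjusted p = 0.760 from limma) with an interval of -0.14 to 0.22. With no batch term the difference for Ctsg was 0.004.

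These intervals allow a rise of up to 1.43-fold for Mpo by 100414_s_at, 1.34-fold for Elane, 1.38-fold for Prtn3 and 1.16-fold for Ctsg. The interval of Ltf, the least changed of the specific granule genes, was 1.17-fold to 1.58-fold. The difference between specific and azurophil granule genes was itself not tested. EAE array 3, from day 17, was the highest EAE array for Elane, Prtn3, Ctsg and Mpo by 100414_s_at, and the lowest for Mpo by 100415_at. It is a single array, so its day was not tested.

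The control means of the azurophil probe sets stood at the 9.02 to 21.7 percentile of all probe sets, and those of the specific granule genes at the 33.8 to 53.8 percentile. Brightness depends on the probes as well as on the transcript, and the deposited table holds no detection call. As a gauge of signal without transcript, 17 genes of other organs that are not known in spinal cord had control means of 3.82 to 7.47. Most are genes of pancreas, testis and liver. Cela1 set the top of this range, and the next highest was Krt4, at 6.53. The 12 member probe sets lay inside this range in control apart from 95807_at of Csf3r, at 7.48. None of the 17 was called, in either direction or at an unadjusted p under 0.05, and their median log2 difference was -0.005.

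Other contents of granules were higher as well. For the counts of each list, the shares over all genes were 9.19% higher and 13.5% lower. Of 12 other genes of specific and gelatinase granules, 9 were higher and 0 lower, with a median log2 difference of 2.33, the largest being those of Chil3, a chitinase-like protein (6.26), Lcn2, which binds bacterial siderophores (5.97), Chil1, another chitinase-like protein (3.52), and Anxa1, an annexin that limits inflammation (3.20). Several of these are also made by macrophages or astrocytes. Mmp9, the gelatinase that names the gelatinase granule and was picked after its value was seen, was not called (log2 difference -0.11, adjusted p = 0.444 from limma). Of 7 genes that process or accompany azurophil contents 6 were higher, with a median of 1.85. They included Lyz2, lysozyme (5.93), Ctsc, the protease that activates Elane, Prtn3 and Ctsg (3.56), Srgn, the proteoglycan on which granule proteins are packed (2.42), and Man2b1, a lysosomal mannosidase (1.85). All 4 are expressed by other myeloid cells as well. Among 14 inhibitors of these proteases 3 were higher and 0 lower (median -0.01). These were Serpina3n, which inhibits serine proteases (3.38), Timp1, an inhibitor of metalloproteinases such as Mmp8 (2.27), and A2m, a broad inhibitor in plasma (0.99). Serpinb1a, an inhibitor of neutrophil serine proteases that stands in this list and is also the gene of the azurophil handling list that was not called, was named after its value was seen. Its log2 signal was 4.72 to 4.93 on the EAE arrays and 4.97, 5.12 and 5.33 on the control arrays, so every EAE array lay below every control array, with a log2 difference of -0.35 (adjusted p = 0.0757 from limma). Without the batch term, with batch as a random block and with a variance trend it passed, which gave 1 lower gene in both lists.

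**Figure D3:**
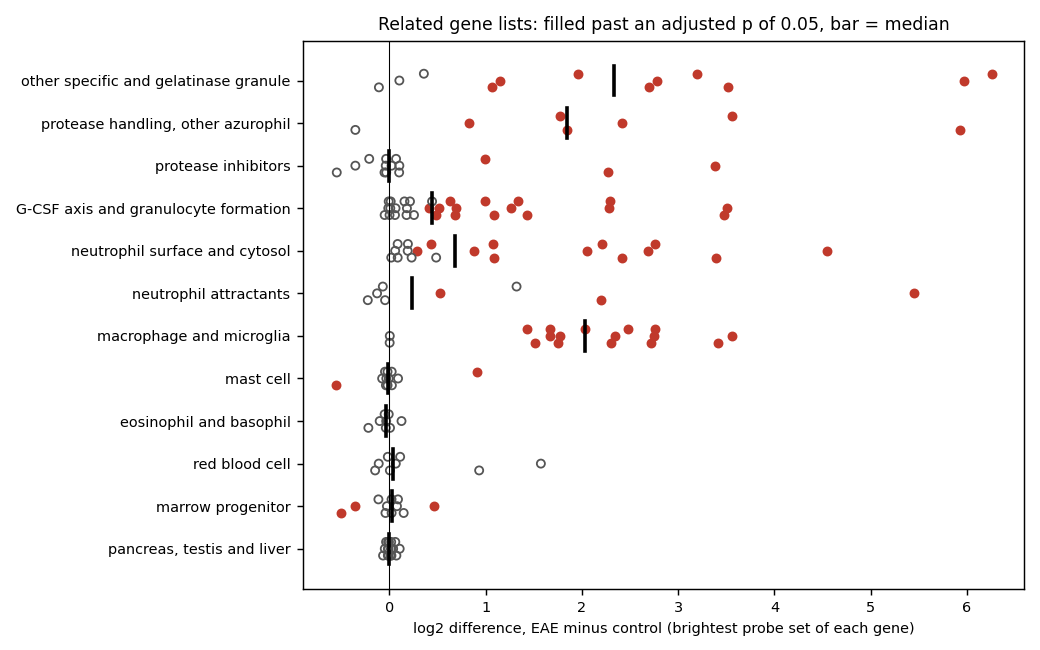
Log2 difference between EAE and control for the genes of 12 lists, each by its brightest probe set, filled where the adjusted p from limma was under 0.05, with the median of each list as a black bar. The medians of the specific and gelatinase granule list (2.33), the macrophage and microglia list (2.03) and the azurophil handling list (1.85) lie far to the right, and those of the red blood cell (0.04) and the eosinophil and basophil list (-0.04) near 0.

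Of 29 genes of the G-CSF pathway and of granulocyte formation 15 were higher and 0 lower, against 9.19% and 13.5% of all genes. Their median log2 difference was 0.44. Cebpd (3.51) and Cebpb (3.47), C/EBP transcription factors induced in inflammation, rose most, followed by Socs3, the inhibitor that binds the activated G-CSF receptor (2.29), and Csf2rb2, a receptor chain for interleukin 3 (2.28). Csf3, the G-CSF ligand, was named for its role after its value was seen, and was not called (log2 difference 0.18, adjusted p = 0.205 from limma). Its EAE arrays, at 6.87 to 6.99, all lay above its control arrays, at 6.66 to 6.84. Of 8 neutrophil attractants 3 were higher (median 0.24), namely Saa3, an acute phase protein (5.45), Cxcl1, a ligand of the neutrophil receptor Cxcr2 (2.20), and Ccl3, a chemokine (0.52).

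Neutrophil surface and cytosolic genes were higher for 12 of 20 and lower for 0, against 9.19% and 13.5% of all genes. Their median log2 difference was 0.68. S100a8 (4.54) and S100a9 (3.40), the abundant calcium-binding proteins of neutrophil cytosol, Itgb2, the leukocyte integrin beta chain (2.76), and Fpr2, a formyl peptide receptor (2.68), rose most. These genes are expressed by other myeloid cells as well. The genes of the list most particular to neutrophils by common use, Ly6g (log2 difference 0.02, adjusted p = 0.882 from limma) and Cxcr2 (0.19, adjusted p = 0.160), were not called, and were picked after their values were seen. The control means of Ly6g (5.33) and Cxcr2 (4.84) lay inside the range of the 17 genes of other organs, 3.82 to 7.47. Whether these probe sets would report a rise was not tested. For Cxcr2 every EAE array (4.93 to 5.10) lay above every control array (4.80 to 4.89).

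The mean log2 signal of 17 macrophage and microglia markers was 7.95 to 8.31 on EAE arrays and 6.08 to 6.16 on control arrays, and 15 of them were higher, with a median log2 difference of 2.03. C1qb (3.56), Mpeg1 (3.41), C1qa (2.76) and Tyrobp (2.75) rose most, and Marco and Cx3cr1 did not pass. The part of these 17 markers in the results of the members was not tested. Of 12 mast cell markers Hdc, the histidine decarboxylase that neutrophils and basophils also make, was higher (0.91) and Kit, a receptor that neurons also express, was lower (-0.56). The counts of this list and of those that follow stand beside 9.19% of all genes higher and 13.5% lower. None of 8 eosinophil and basophil genes was called by limma, and 1 was lower at an unadjusted p under 0.05, Mcpt8 (-0.22), while Alox15 was at 0.13. The mean level of this list was 4.95 to 5.06 on EAE arrays and 5.00 to 5.10 on control arrays. Of 11 markers of marrow progenitors and developing B cells, Cd34 was higher (0.46) and Flt3 (-0.50) and Ebf1 (-0.36) were lower, with a mean level of 5.90 to 5.99 in EAE and 5.95 to 6.08 in control. Markers of the cord itself were bright, at a mean level of 9.00 to 9.54 in EAE and 9.75 to 9.86 in control. Of these 12 genes Gfap, of astrocytes, was higher (0.74), and Mog, of myelin (-0.89), Nefh, of neurofilaments (-0.69), Hoxc8, a positional gene of the cord (-0.68), and Snap25, a synaptic gene named after its value was seen (-0.47), were lower.

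Blood left in the vessels would carry neutrophils, and red blood cell genes were read for it. None of 8 was called by limma, and 1, Hba-a1, was higher at an unadjusted p under 0.05. The median log2 difference of the 8 was 0.04, but both globins had higher means in EAE and varied widely between EAE arrays. Hba-a1, alpha globin, was at a log2 signal of 8.11, 9.01, 7.35, 6.00 and 8.26 on the EAE arrays and 6.35, 6.39 and 7.01 on the control arrays. Its log2 difference was 1.57 (adjusted p = 0.0611 from limma), or 2.98-fold with an interval of 1.41 to 6.28. Within batches 1, 2 and 3 it was 1.76, 2.61 and 0.35. Hbb-b2, beta globin, differed by 0.93 (adjusted p = 0.175 from limma), and by 1.41, 1.67 and -0.28 within the batches. EAE array 4 had the least Hba-a1 of all 8 arrays. On that array Mmp8 was at 8.16, Ngp at 7.88, Camp at 7.25, Ltf at 6.20, Csf3r by 93198_at at 7.31 and Csf3r by 95808_g_at at 6.18. EAE array 2 had the most Hba-a1. On it Mmp8 was at 8.16, near its highest EAE value, Csf3r by 95808_g_at was at 6.06, above EAE array 1, and Ngp, Camp, Ltf and Csf3r by 93198_at had their lowest EAE signal. The part of blood in the results was not tested.

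**Figure D4:**
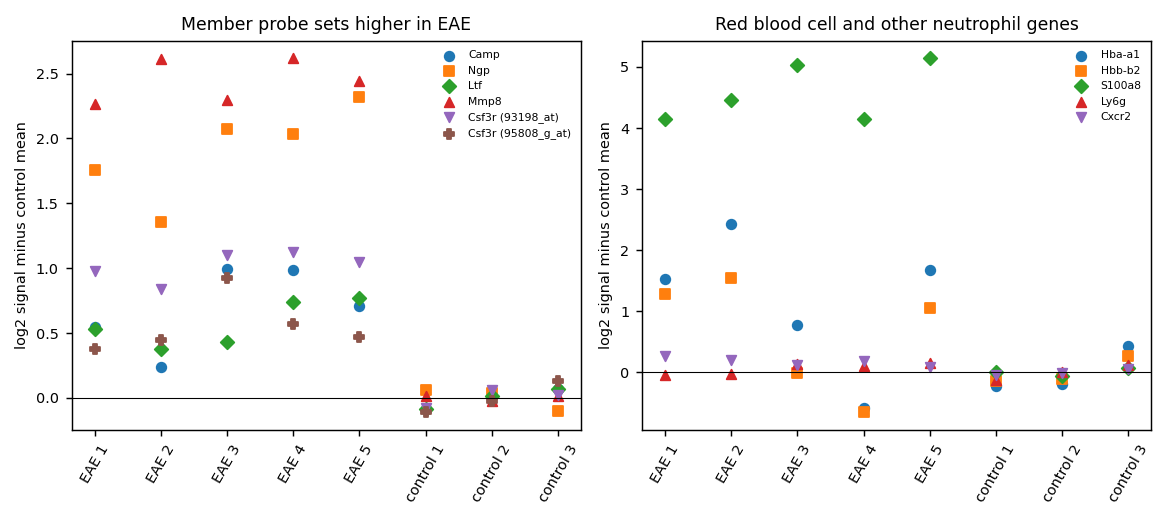
Log2 signal minus the control mean on each of the 8 arrays, for the 6 member probe sets that were higher in EAE (left) and for 2 globins and 3 other neutrophil genes (right, a wider axis). The globins spread from below the control mean on EAE array 4 to their highest values on EAE array 2, while S100a8 was high on all 5 EAE arrays and Ly6g and Cxcr2 stayed near 0.

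RNA quality also differed between arrays. The log2 signal of the 3′ minus the 5′ probe sets of Gapdh, which grows as RNA degrades, was 1.46 and 2.07 on EAE arrays 1 and 4, 0.46 to 0.78 on the other EAE arrays and 0.53 to 0.97 on the controls. For beta-actin the same difference was 2.35 and 2.79 on EAE arrays 1 and 4, 1.11 to 1.83 on the other EAE arrays and 1.62 to 2.29 on the controls, so that EAE array 1 stood close to the controls by this measure. The part of RNA quality in the results was not tested. Without EAE arrays 1 and 4, Ngp, Mmp8 and both Csf3r probe sets still passed, whereas Camp (adjusted p = 0.106 from limma) and Ltf (adjusted p = 0.0576) did not. EAE array 4 does not enter the difference with batch in the model, so this equals leaving out the pair of batch 1.

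The genes whose profiles lay nearest to the members were found by the root mean square difference over the 8 arrays, each value taken minus the mean of the controls, so that a small value means a like size of change on each array. Nearest to Mmp8 were Ncf4, a subunit of the phagocyte oxidase (0.116 log2 units), Ptprc, the common leukocyte antigen (0.163), and Il1rn, the interleukin 1 receptor antagonist (0.164). Nearest to Ngp were Gimap4, a GTPase of lymphocytes (0.197), Slc11a1, a metal transporter of phagosomes (0.205), and Casp4, an inflammatory caspase (0.215). For Camp they were Smpdl3a (0.0956), Ccn5 (0.111) and Rab3d, a GTPase of secretory vesicles (0.143), of which Smpdl3a itself was not called (adjusted p = 0.0673 from limma). For Ltf they were Lgals9, galectin 9 (0.0479), Trim21, an antibody receptor of the cytosol (0.0877), and Mcoln2, a channel of endosomes (0.0879). Csf3r by 93198_at lay nearest to Casp12 (0.0790), Tlr6, a receptor of bacterial lipopeptides (0.0797), and Tnfaip2 (0.0798). By 95808_g_at it lay nearest to Lrch4 (0.0995), Npc2, a lysosomal cholesterol carrier (0.103), and Ctsb, a lysosomal protease (0.104). No specific granule gene was among the 3 nearest of another. Their log2 differences ran from 0.44 (Ltf) to 2.39 (Mmp8), and the measure depends on size of change. It therefore cannot tell whether these genes varied together.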

How the data were processed

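The values are log2 signals that the authors made in Partek with RMA, quantile normalization and an adjustment for GC content and deposited as 1 table. They were used unchanged. Partek and RMA versions are not given in the sources used here. Groups and batches came from the labels. The medians of the 8 arrays ran from 6.08 to 6.13. The array's 66 control probe sets were left out of the tests, and those of Gapdh and beta-actin were read for RNA quality. Dim probe sets were kept.

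For differences, limma (version 3.58.1, R 4.3.3) fitted treatment and batch, the terms of the methods' 2 way analysis of variance, with 2 residual and 3.05 prior degrees of freedom. Tests were two-sided, adjusted by Benjamini-Hochberg over 12422 probe sets, with a threshold of 0.05. The exact permutation test over 56 regroupings gave 0.0179, the smallest it allows, for Ngp, Ltf, Mmp8 and both Csf3r probe sets that rose, and 0.0357 for Camp. Replicate numbers equal batches, which the labels tie to a shared processing day, so arrays of 1 number were taken as pairs. The correlation of their deviations from the group means was 0.302, -0.231 and 0.412 in batches 1, 2 and 3. Precision is limited by how many arrays there were.

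Of the probe sets 10833 had 1 gene symbol, 396 several and 1193 none, and 10817 were matched to RefSeq by gene identifier. A gene with several probe sets was given by the brightest, except members, which were given by all. The members and 13 lists of 224 genes, 173 of them measured, were chosen with earlier results of these data known. Named from a list were up to 4 called genes with the largest difference, or 2 where none was called, and for each member probe set called the 3 nearest profiles. Alternatives were no batch term, a random batch block, no moderation, a variance trend, a robust prior, median centring, quantile normalization, brighter probe sets only, array weights, a stricter threshold and arrays left out. The fit was tested on simulated data. Promoters of all 9 genes were read from the RefSeq table. Figures were drawn with matplotlib 3.10.9.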

Additional observations from a re-analysis of the deposited data

Results flagged for a closer look

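Among 53 genes or probe sets examined over the 5 EAE arrays, the members and the genes named from the lists, 3 had 1 array that lay far from the other 4, where chance gives about 1 in 20. A2m was at a log2 signal of 7.67 on EAE array 1, against 8.41 to 8.60 on the others. Hdc was at 6.27 on EAE array 5, against 5.72 to 5.85. Alox15 was at 5.39 on EAE array 3, against 5.18 to 5.23. No member probe set had such an array.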

How the results depend on the processing

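The 6 member probe sets kept their direction under all alternatives run, and Mmp8, Ngp and Csf3r by 93198_at lost their call only without moderation of the variances. That linear model, with 2 residual degrees of freedom, called 0 member probe sets, 0 genes of the related lists, and over all probe sets 1 higher and 0 lower (at an unadjusted p under 0.05, 5 members higher, 59 list genes higher and 7 lower, and 1081 higher and 1575 lower over all). Its adjusted p was 0.305 for Camp, 0.177 for Ngp, 0.209 for Ltf, 0.124 for Mmp8, 0.146 for Csf3r by 93198_at and 0.200 by 95808_g_at. Without the replicate block (no batch term) 6 member probe sets were still higher, as with batch as a random replicate block, and over all probe sets 1062 and 1205 were higher. The pairing changed no other member call. Leaving out 1 array at a time gave 3 to 6 member probe sets higher and over all probe sets 521 to 1026 higher and 225 to 1412 lower. The adjusted p then ran from 0.0330 to 0.176 for Camp, 0.0239 to 0.0978 for Ltf and 0.0148 to 0.0675 for Csf3r by 95808_g_at. The lowest counts came without EAE array 3 or control array 3. Leaving out both arrays of batch 3, chosen after seeing the data, gave the same values: 3 members, 521 higher, 225 lower, and an adjusted p of 0.176, 0.0978 and 0.0675. At an adjusted p under 0.01, 3 members passed, and 540 and 290 of all probe sets. Camp also lost its call with further quantile normalization (adjusted p = 0.0602), with array weights (0.0569) and without the 2 EAE arrays of largest Gapdh difference (0.106), where Ltf was at 0.0576. Among brighter probe sets only, Ltf, 95808_g_at and the azurophil probe sets were not tested. The cause was not tested. The difference rests on 3 pairs, and whether the dim azurophil probe sets would report a rise was not tested.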
